A study of Mus musculus with 4 samples.

Results

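The mitochondrially encoded genes are the 37 genes carried by the mouse mitochondrial genome (mtDNA). They were taken as every row of the deposited table whose gene name starts with mt-, and they comprise 13 mRNA genes, 2 rRNA genes and 22 tRNA genes among 51826 genes in all. Beside them stand Gm28437, Gm28438 and Gm28439, 3 nuclear pseudogenes on chromosome 1 that copy stretches of mtDNA. The values are TPM, an abundance scaled for transcript length and for the library total, from RNA sequencing of polyadenylated RNA. All cells were mouse embryonic stem cells of C57BL/6 background driven towards mesoderm and collected at day 3, after 2 days with 10 ng/ml of BMP4 and 1 day with 1 uM CHIR99021, which inhibits GSK3, in 0.5% DMSO. One group was wild type (2 libraries) and the other lacked the pseudokinase gene Stk40 (Stk40-/-, 2 libraries), and both groups had been kept on feeder fibroblasts before differentiation. The labels do not say how many cell lines or separate cultures each genotype comes from, so a p-value reflects the spread of these libraries alone, which may be technical, and a difference between genotypes cannot be told apart from one between lines.

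Mitochondria transcribe both strands of their circular genome into long RNAs, which are cut at the tRNAs that punctuate the genes. Most of the mRNAs then receive short poly(A) tails from the mitochondrial polymerase Mtpap, by which they can be captured with polyadenylated RNA. All of the mRNAs encode core subunits of the respiratory chain and of the ATP synthase, the oxidative phosphorylation (OXPHOS) machinery, and their partner subunits are made from nuclear genes. Pieces of mtDNA have also been copied into the nuclear genome, where they are annotated as pseudogenes.

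The sequences below show why the nuclear copies have to be read together with the mitochondrial genes. The first 60 bases of mt-Nd3 (chrM:9459-9518, plus strand) and of Gm28438 (chr1:24613060-24613119, minus strand) are given first, from GENCODE M21 on GRCm38, with the single base that differs between them in capitals.
mt-Nd3: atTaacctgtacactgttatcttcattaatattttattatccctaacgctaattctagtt
Gm28438: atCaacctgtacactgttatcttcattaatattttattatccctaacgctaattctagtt
The substitution is T3C, counted from 1 at the 5′ end of mt-Nd3, and it is the only one along the 345 aligned bases of the 348-base mt-Nd3. The other 2 named copies carry no difference in their aligned part. Gm28437 (chr1:24613189-24613971) matches mt-Co3 over 783 of 784 bases, and Gm28439 (chr1:24611535-24612410) matches the first 876 of 1378 bases of mt-Nd4. The first 60 bases are therefore the same in gene and copy.
mt-Co3 and Gm28437: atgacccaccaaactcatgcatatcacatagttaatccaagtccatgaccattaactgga
mt-Nd4 and Gm28439: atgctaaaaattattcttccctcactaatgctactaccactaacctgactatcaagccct
A read that lies inside such a stretch fits both transcripts equally well, and Salmon, the tool named for these data, divides it between them by estimation.

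Neighbouring mitochondrial genes also share bases. The reading frames of mt-Atp8 and mt-Atp6 overlap by 43 bases (capitals, chrM:7912-7984), and those of mt-Nd4l and mt-Nd4 by 7 bases (capitals, chrM:10152-10188). Each pair is kept in the cell as 1 mRNA with 2 frames, although the table lists each frame as a gene with a value of its own.
mt-Atp8 to mt-Atp6: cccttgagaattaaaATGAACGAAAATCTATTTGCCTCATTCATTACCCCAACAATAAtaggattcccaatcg
mt-Nd4l to mt-Nd4: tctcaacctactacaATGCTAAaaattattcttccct
The genes mt-Nd5 and mt-Nd6 lie on opposite strands and overlap by 14 bases. The sources used here do not say whether strand was used in counting, so reads from the opposite strand cannot be told apart.

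The mRNAs took a large part of every library. Their summed share of all TPM was 9.48% and 8.48% in the wild-type libraries and 9.33% and 9.97% in the Stk40-/- libraries, so the groups overlapped (exact two-sided permutation test, p = 0.667, where 0.33 is the smallest p that 2 against 2 libraries allow). On the log2 scale the Stk40-/- sum was higher by 0.11, against 0.02 when wild-type library 2 was left out and 0.19 when wild-type library 1 was. In bulk RNA given as shares of TPM, a difference in the mix of cells, in mtDNA copies or in RNA per cell cannot be told apart. The 2 rRNAs made up 0.0875% and 0.0910% in wild type and 0.0762% and 0.0988% in Stk40-/- cells. The summed mRNAs exceeded the summed rRNAs in every library, with ratios of 108 and 93.2 in wild type and 122 and 101 in Stk40-/- cells.

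**Figure D1:**
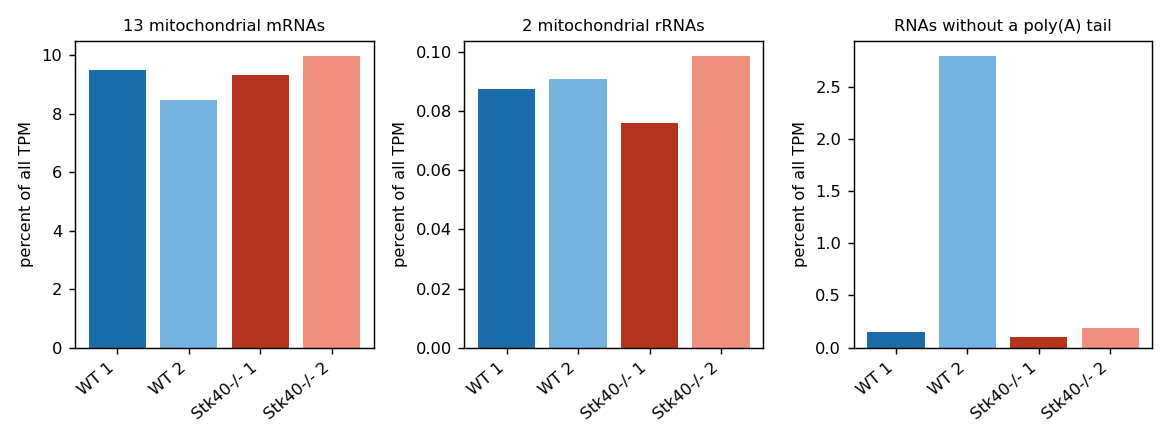
Bars give the percent of all TPM in each library (WT 1, WT 2, Stk40-/- 1 and Stk40-/- 2) taken by the 13 mitochondrial mRNAs, the 2 mitochondrial rRNAs and the listed RNAs without a poly(A) tail, each panel with its own axis from 0. Wild-type library 2 has the lowest mRNA share, 8.48%, and the highest share of RNAs without a poly(A) tail, 2.80%.

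Several facts of the libraries touch these values. RNAs without a poly(A) tail (7SL, 7SK and other small nuclear and cytoplasmic RNAs with the replication histone genes, 78 genes) made up 0.150% and 2.80% of TPM in the wild-type libraries and 0.106% and 0.186% in the Stk40-/- libraries, so wild-type library 2 stood apart. The histone genes of that list did not differ in this way (371, 425, 442 and 368 TPM in the same order). Of the 13 mitochondrial mRNAs 9 had their lowest value in wild-type library 2. Stk40 itself had wild-type values of 28.9 and 39.9 TPM and Stk40-/- values of 3.54 and 3.17 TPM. The 7 streak and mesoderm markers summed to 1245 and 634 TPM for the wild-type pair and 413 and 264 TPM for the Stk40-/- pair, with Mesp1 at 0.177 TPM in wild-type library 1 and at 0 in the other libraries. The 3 pluripotency markers summed to 496 to 664 TPM over the libraries, so pluripotency genes were still expressed. Of these, 2 had positive and 1 had a negative log2 difference (median 0.52). The 10 feeder fibroblast markers summed to 25.0 and 34.6 TPM for the wild-type pair and 22.1 and 19.2 TPM for the Stk40-/- pair, and Lum was at 0.0791 TPM or less everywhere. Of the 6 tested, 5 had negative log2 differences, and the median of the 6 was -0.82. In 4 (66.7%) the Stk40-/- values were lower without overlap, beside 16.6% of all tested genes. Thy1 alone was positive, with wild-type values of 7.28 and 9.42 TPM and Stk40-/- values of 13.1 and 9.17 TPM. Scaled without the RNAs lacking a poly(A) tail, the log2 difference of the mRNA sum was 0.086, against 0.105 in the reported setting. The median log2 difference of the 13 mRNAs was 0.063 with that scaling, against 0.083. The part of the other differences named here in the mitochondrial values was not tested.

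Among the mRNAs of complex IV, cytochrome c oxidase, mt-Co1 (chrM:5328-6872) encodes the catalytic subunit that reduces oxygen. It had wild-type values of 20121 and 14740 TPM and Stk40-/- values of 21043 and 19951 TPM, and it was the highest gene of the whole table in all 4 libraries. Wild-type library 2 alone was low and the groups overlapped (log2 difference 0.25, SE 0.16, limma adjusted p = 0.613). The gene mt-Co2 (chrM:7013-7696), for the subunit that takes electrons from cytochrome c, had wild-type values of 16990.4 and 14267 TPM and Stk40-/- values of 16333 and 16559 TPM. Both Stk40-/- values lay between the wild-type ones. The third subunit gene, mt-Co3 (chrM:8607-9390), had wild-type values of 11147 and 11680.4 TPM and Stk40-/- values of 11605 and 12238 TPM, where the groups overlapped within a narrow range.

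Complex V, the ATP synthase, has a pair of mitochondrial subunits of its membrane part. The proton channel gene mt-Atp6 (chrM:7927-8607) had wild-type values of 12165 and 10629 TPM and Stk40-/- values of 12256 and 12158 TPM, with wild-type library 2 low and wild-type library 1 inside the Stk40-/- range. The accessory subunit gene mt-Atp8 (chrM:7766-7969) had wild-type values of 922 and 726 TPM and Stk40-/- values of 1289 and 1352 TPM. The Stk40-/- values were the higher ones without overlap, with a log2 difference of 0.69 (SE 0.13, 95% interval 0.34 to 1.04). It did not pass the threshold of 0.05 over all genes tested (limma adjusted p = 0.306, range 0.224 to 0.738 over the alternatives), and with 1 library left out the difference ran from 0.52 to 0.86. The ratio of mt-Atp8 to mt-Atp6, the frames that share an mRNA, was 0.0758 and 0.0683 in wild type and 0.105 and 0.111 in Stk40-/- cells (exact two-sided permutation test, p = 0.33, the smallest possible). With 204 bases mt-Atp8 is the shortest of the mRNAs, and the effective length by which TPM divides depends on fragment size most in the shortest genes. Reads were 100 or 150 bases long, and the sources used here do not say which library had which. The part of fragment size or read length in the mt-Atp8 difference was not tested.

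Complex I, the NADH dehydrogenase, has 7 mitochondrial subunits, all of its membrane arm. The gene mt-Nd1 (chrM:2751-3707), at the junction of the membrane and matrix arms, had wild-type values of 6852 and 6973 TPM and Stk40-/- values of 5657 and 7136 TPM. The antiporter-like subunit gene mt-Nd2 (chrM:3914-4951) had wild-type values of 4151 and 4265 TPM and Stk40-/- values of 3632 and 4504 TPM. In both genes the Stk40-/- libraries lay on either side of the wild-type ones. For mt-Nd4 (chrM:10167-11544), another antiporter-like subunit, the values were 3765 and 3419 TPM (wild type) and 3470.4 and 3671 TPM (Stk40-/-). The subunit gene mt-Nd4l (chrM:9877-10173), which precedes it on the same mRNA, had wild-type values of 4002 and 3843 TPM and Stk40-/- values of 4003 and 4310.4 TPM. The groups of mt-Nd4l did not overlap, but the lower Stk40-/- value exceeded the higher wild-type value by less than 1 TPM (log2 difference 0.08, SE 0.06, limma adjusted p = 0.635). The ratio of mt-Nd4l to mt-Nd4 stayed between 1.06 and 1.17 over the libraries.

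The remaining complex I genes showed the larger spreads between the wild-type replicates. The largest antiporter-like subunit gene, mt-Nd5 (chrM:11742-13565), had wild-type values of 1988 and 1472 TPM and Stk40-/- values of 1942 and 2070 TPM. The gene mt-Nd6 (chrM:13552-14070), the only mRNA on the light strand, had wild-type values of 2816 and 1884 TPM and Stk40-/- values of 2684 and 2791 TPM. In both, wild-type library 2 was the low value, and the ratio of mt-Nd6 to mt-Nd5 stayed between 1.28 and 1.42. The small subunit gene mt-Nd3 (chrM:9459-9806) had wild-type values of 4599 and 6768 TPM and Stk40-/- values of 5045 and 8311 TPM. Here library 2 was the higher one in each genotype, and the replicates differed far more than the groups (log2 difference 0.21, SE 0.31). In complex III, the cytochrome bc1 complex, the mitochondrial subunit cytochrome b (mt-Cytb, chrM:14145-15288) had wild-type values of 5300.2 and 4118 TPM and Stk40-/- values of 4360.5 and 4660 TPM, again with the Stk40-/- values between the wild-type ones.

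**Figure D2:**
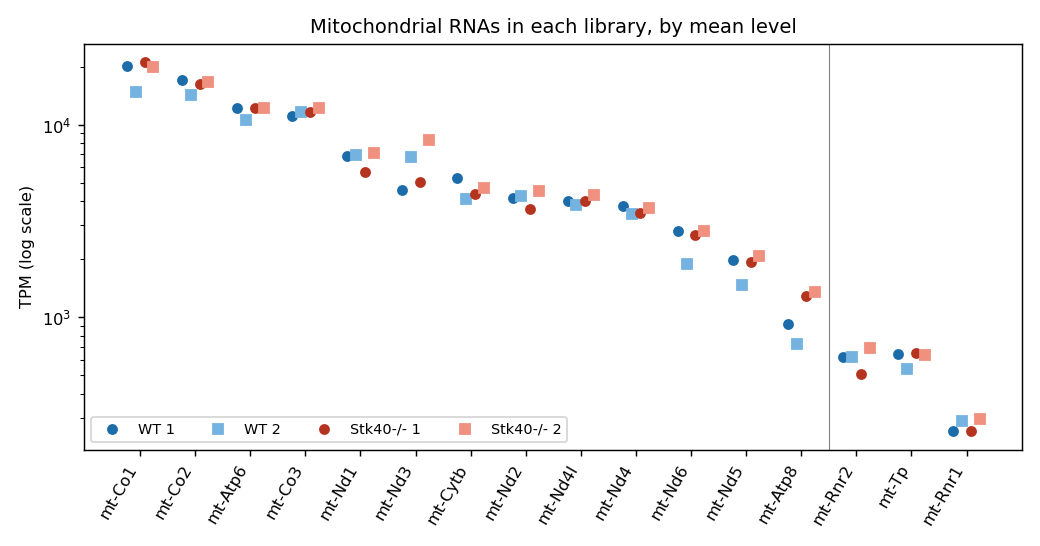
Points give TPM on a log scale for the 13 mitochondrial mRNAs in order of their mean, followed by the rRNAs and mt-Tp, with circles for library 1 and squares for library 2 of each genotype. The genotypes are mixed in most genes, while mt-Atp8 has both Stk40-/- points (1289 and 1352 TPM) above both wild-type points (922 and 726 TPM).

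Over the mRNAs as a whole, limma called 0 of the 13 in either direction (smallest adjusted p = 0.306), as it called 0 of 15739 tested genes, which is 0% as background, with 1730 genes and 1 of the 13 at an unadjusted p under 0.05. The groups did not overlap in 2 of the 13, against 44.0% of all tested genes. Both of these had the higher values in Stk40-/- cells (27.5% of all tested genes), and 0 of the 13 had the lower ones there (16.6%). The median log2 difference was 0.08, beside 0.07 over all tested genes, and 9 values were positive and 4 negative. With median-of-ratios scaling, which set the all-gene median to 0.01, the median of the 13 was 0.02. Apart from mt-Atp8 the 12 log2 differences ran from -0.12 to 0.25, and every one of their 95% intervals included 0, the outer bounds being -0.63 and 1.06, both of mt-Nd3. In 12 of the 13 genes at least 1 replicate gap was larger than the group difference. Wild-type library 2 lay below wild-type library 1 in 9 genes, and Stk40-/- library 2 lay above Stk40-/- library 1 in 11.

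**Figure D3:**
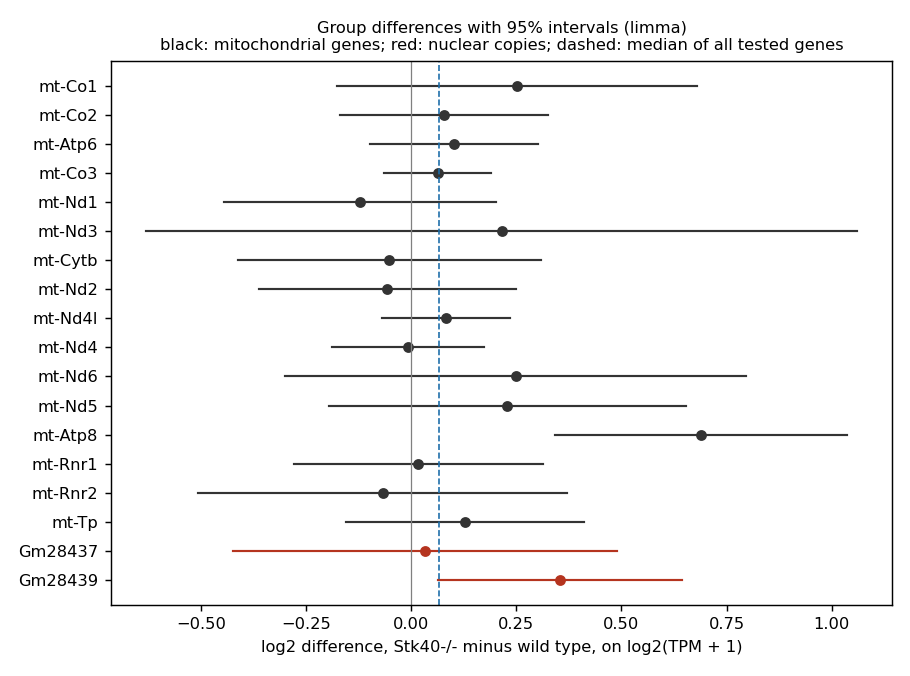
Points give the log2 difference of Stk40-/- minus wild type on log2(TPM + 1) with 95% intervals from limma, for mitochondrial genes (black) and the nuclear copies Gm28437 and Gm28439 (red), with the median of all tested genes, 0.07, as a dashed line. The interval of mt-Atp8, 0.34 to 1.04, is the only one of the mitochondrial genes drawn that excludes 0.

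The order of the mRNAs by level was much the same in each library. By their mean the order was mt-Co1 (18964 TPM), mt-Co2, mt-Atp6, mt-Co3, mt-Nd1, mt-Nd3, mt-Cytb, mt-Nd2, mt-Nd4l, mt-Nd4, mt-Nd6, mt-Nd5 and mt-Atp8 (1072 TPM), a span of 17.7-fold. Of the 12 neighbouring pairs 7 had ranges over the libraries that overlapped, and 5 were separate, among them mt-Co2 above mt-Atp6, mt-Co3 above mt-Nd1 and mt-Nd5 above mt-Atp8. Between 7 and 9 of the mRNAs were among the 20 highest genes of a library, and the lowest rank of any was 170. Although mt-Atp8 and mt-Atp6 share an mRNA, they stand near opposite ends of this order. Level did not follow length across the 13 genes (Spearman's rho 0.16), and neither did the difference between genotypes follow it closely (rho -0.30). These are descriptions across genes of the same libraries, which are not independent replicates. All 13 are rich in A and T, with a GC content of 31.9% to 41.1%, and 3 have a length that is not a multiple of 3, since their stop codon is completed by the poly(A) tail.

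The rRNAs form the small and large subunits of the mitochondrial ribosome. The small-subunit gene mt-Rnr1 (chrM:70-1024) had wild-type values of 256 and 289 TPM and Stk40-/- values of 256 and 295 TPM. The large-subunit gene mt-Rnr2 (chrM:1094-2675) had wild-type values of 620 and 621 TPM and Stk40-/- values of 506 and 692 TPM. The genotypes overlapped in both (limma adjusted p = 0.967 and 0.895), and the log2 difference of their sum, -0.04, turned from -0.23 to 0.15 depending on whether Stk40-/- library 2 or 1 was left out. The ratio of mt-Rnr2 to mt-Rnr1 was 2.43 and 2.15 in wild type and 1.98 and 2.35 in Stk40-/- cells. Both lay below every mitochondrial mRNA, in RNA selected for poly(A) tails.

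Of the 22 tRNA genes, 17 were listed at 0 in all 4 libraries. The tRNA genes are 59 to 75 bases long, shorter than a read, and most of their RNA has no poly(A) tail. The part of either property in the values of 0 was not tested. An exception in value but not in length was mt-Tp, the proline tRNA on the light strand (chrM:15356-15422). Its 67 bases are shown because it was the only tRNA gene with a substantial value.
mt-Tp: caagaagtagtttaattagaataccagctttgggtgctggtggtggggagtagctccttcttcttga
It had wild-type values of 647 and 537 TPM and Stk40-/- values of 650 and 639 TPM, and its groups overlapped (log2 difference 0.13, SE 0.10, limma adjusted p = 0.639). Its neighbour on the other strand, the threonine tRNA gene mt-Tt, was listed at 0 in all libraries. The other 4 tRNA genes above 0 had 6 values above 0 in all, between 5.02 and 6.31 TPM. The alanine tRNA gene mt-Ta had Stk40-/- values of 6.06 and 5.02 TPM and was listed at 0 in both wild-type libraries. The tryptophan tRNA gene mt-Tw had Stk40-/- values of 6.31 and 5.199 TPM and was likewise listed at 0 in wild type. Neither passed in limma (adjusted p = 0.265 for each, range 0.0782 to 0.415 over the alternatives), and no fold is given against values of 0. Both reached the mean of 1 TPM needed for testing through the Stk40-/- libraries alone. Their tests therefore lend no weight to a difference between genotypes. The phenylalanine tRNA gene mt-Tf was above 0 in Stk40-/- library 1 alone (6.06 TPM), and the leucine tRNA gene mt-Tl1 in wild-type library 2 alone (5.46 TPM). The depth behind these values is unknown.

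The nuclear copies had values of very different kinds. Gm28438, the copy of mt-Nd3 that carries T3C, had wild-type values of 1884 and 2354 TPM and Stk40-/- values of 124 and 0.0309 TPM. The Stk40-/- values were far lower without overlap, and they also differed widely from each other. On log2(TPM + 1) the difference was -7.53 (SE 2.37, limma adjusted p = 0.425, range 0.263 to 0.599 over the alternatives), and it was -4.07 when Stk40-/- library 2 was left out and -11.00 when library 1 was. This was the lowest log2 difference of all 15739 tested genes, and it did not pass. Only 1 aligned base separates the copy from mt-Nd3, and Salmon divides by estimation the reads that fit both. Which base the reads carry was not tested, nor was the part of this division in the difference between genotypes. As a part of the TPM of mt-Nd3 and Gm28438 together, the copy held 29.1% and 25.8% in wild type and 2.40% and 0.000372% in Stk40-/- cells. Added to mt-Nd3 with weights for length, the pair came to 6466 and 9101 TPM for the wild-type pair and 5168 and 8311 TPM for the Stk40-/- pair, with overlapping groups. The log2 difference of mt-Nd3 thereby went from 0.21 alone to -0.23 with the copy, so its sign depended on whether the copy was counted with it.

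The other named copies did not show this contrast. Gm28437, the copy of mt-Co3, had wild-type values of 2595 and 3386 TPM and Stk40-/- values of 2740.3 and 3356 TPM. In both genotypes library 2 was the higher one and the groups overlapped (log2 difference 0.03, SE 0.17). It held 18.9% and 22.5% (wild type) and 19.1% and 21.5% (Stk40-/-) of the TPM of gene and copy together. Gm28439, the copy of the first part of mt-Nd4, had wild-type values of 718 and 619 TPM and Stk40-/- values of 800.3 and 906.6 TPM. Its groups did not overlap (log2 difference 0.35, SE 0.11, limma adjusted p = 0.413), and it held 16.01% and 15.3% (wild type) and 18.7% and 19.8% (Stk40-/-) of the TPM of gene and copy together. With the copy included, mt-Nd4 had wild-type values of 4221 and 3812 TPM and Stk40-/- values of 3979 and 4247 TPM, again overlapping.

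**Figure D4:**
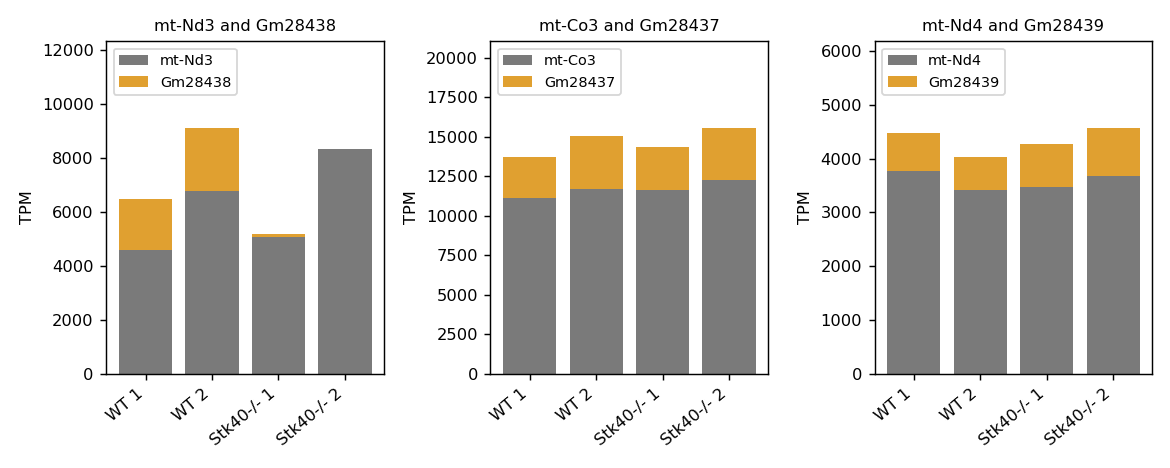
Stacked bars give TPM in each library for mt-Nd3, mt-Co3 and mt-Nd4 (grey) with their nuclear copies Gm28438, Gm28437 and Gm28439 (orange) on top, each panel with its own axis from 0. The orange part of the mt-Nd3 bars is 1884 and 2354 TPM (wild type) and 124 and 0.0309 TPM (Stk40-/-), while the other copies are present in all libraries.

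A search of all annotated nuclear transcripts against the mitochondrial genes found 17 nuclear genes with at least 90% identity over at least 100 bases. Of these 7 reached 99% identity, and all 7 lie on the minus strand of chromosome 1 between 24611535 and 24616197, where, read along that strand, they keep the order of their mitochondrial sources from mt-Co1 to mt-Nd4. Beside the named copies, Gm28661 matches mt-Co2 over 681 bases without a difference and had wild-type values of 224 and 95.8 TPM and Stk40-/- values of 77.4 and 102 TPM. Gm10925 matches mt-Atp6 over 678 bases without a difference and had wild-type values of 44.7 and 2.37 TPM and Stk40-/- values of 3.55 and 0.00438 TPM. Both had overlapping groups. The copy of mt-Co1, Gm29216, differs from it by A1066T (counted from the 5′ end of mt-Co1) in 483 aligned bases and was above 0 in Stk40-/- library 1 alone (5.58 TPM), and Gm10222, which matches 294 of the 297 bases of mt-Nd4l without a difference, was listed at 0 throughout. The copies without a difference thus ranged from 0 to 3386 TPM. Outside this block no match with a row in the table reached a mean of 1 TPM, and 16 of the 17 had such a row.

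The mitochondrial mRNAs were next set beside the nuclear genes for the same complexes. All 77 nuclear subunit genes of complexes I to V passed the filter on low values, limma called 0 of them in either direction (smallest adjusted p = 0.265), and 19 of them, 24.7%, had an unadjusted p under 0.05, against 10.99% of all tested genes. Of the 77, 68 had negative and 9 positive log2 differences, with a median of -0.16 beside 0.07 over all tested genes. Without overlap, Stk40-/- values were the lower ones in 42 of the 77 (16.6% of all tested genes) and the higher ones in 3 (27.5% of all tested genes). Summed over the 77, the nuclear subunits had wild-type values of 23164 and 24451 TPM and Stk40-/- values of 21120 and 22394 TPM, so the groups did not overlap (exact two-sided permutation test, p = 0.33, the smallest possible). The ratio of the 13 mitochondrial mRNAs to this sum was 4.09 and 3.47 in wild type and 4.42 and 4.45 in Stk40-/- cells, also without overlap.

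By complex, the nuclear and mitochondrial partners stood as follows. In complex IV all 11 nuclear genes had negative log2 differences (median -0.21), while the 3 mitochondrial ones were at 0.06 to 0.25. That sign did not hold throughout, since mt-Co3 was at -0.0016 with median-of-ratios scaling and mt-Co2 was at -0.047 without wild-type library 2. Quantile normalization sets values by rank alone, and it put all 3 at 0. Their ranks fixed this outcome, which therefore says nothing about the sign. In every library mt-Co1 ranked 1 and mt-Co2 ranked 2, and mt-Co3 ranked 4 and 3 in each genotype. Ndufa4, a small subunit, had wild-type values of 532 and 525 TPM and Stk40-/- values of 437 and 451 TPM, and Cox7a2, another, had 369 and 334 TPM and 263 and 287 TPM in the same order. In complex V 14 of 17 nuclear genes were negative (median -0.24) and both mitochondrial ones positive. Atp5o, which encodes the stalk subunit OSCP, had wild-type values of 499 and 508 TPM and Stk40-/- values of 371 and 364 TPM (log2 difference -0.45, SE 0.06, limma adjusted p = 0.265), and the rotor subunit gene Atp5e had 316 and 321 TPM and 236 and 249 TPM in the same order. The catalytic subunit gene Atp5b went the other way, with 3425 and 3873 TPM (wild type) and 3881 and 4255 TPM (Stk40-/-).

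In complex I 32 of 36 nuclear genes were negative (median -0.15), against 3 of 7 mitochondrial ones. The membrane-arm subunit gene Ndufa1 had wild-type values of 121 and 122 TPM and Stk40-/- values of 86.1 and 86.8 TPM (log2 difference -0.49, SE 0.07, limma adjusted p = 0.265), and Ndufb7 had 176 and 171 TPM and 133 and 138 TPM in the same order. The core subunit gene Ndufs1 had the smallest unadjusted p among the 4 positive genes, with a log2 difference of 0.18. In complex III 8 of 9 nuclear genes were negative (median -0.07), and the smallest unadjusted p values were those of the small subunit genes Uqcrq (wild type 318 and 346 TPM, Stk40-/- 271 and 269.5 TPM) and Uqcrh (wild type 373 and 415 TPM, Stk40-/- 298 and 321 TPM). Complex II, succinate dehydrogenase, has no mitochondrial gene, and 3 of its 4 genes were negative (median -0.07). On the TPM scale, which is per length, the median of the mitochondrial mRNAs was above that of their nuclear partners in every library. This held in complexes I, III, IV and V alike, and complex IV is given here. The median of the complex IV mRNAs was 16990.4 and 14267 TPM (wild type) and 16333 and 16559 TPM (Stk40-/-), while the median of the nuclear complex IV genes was 507 and 525 TPM and 437 and 451 TPM in the same order.

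**Figure D5:**
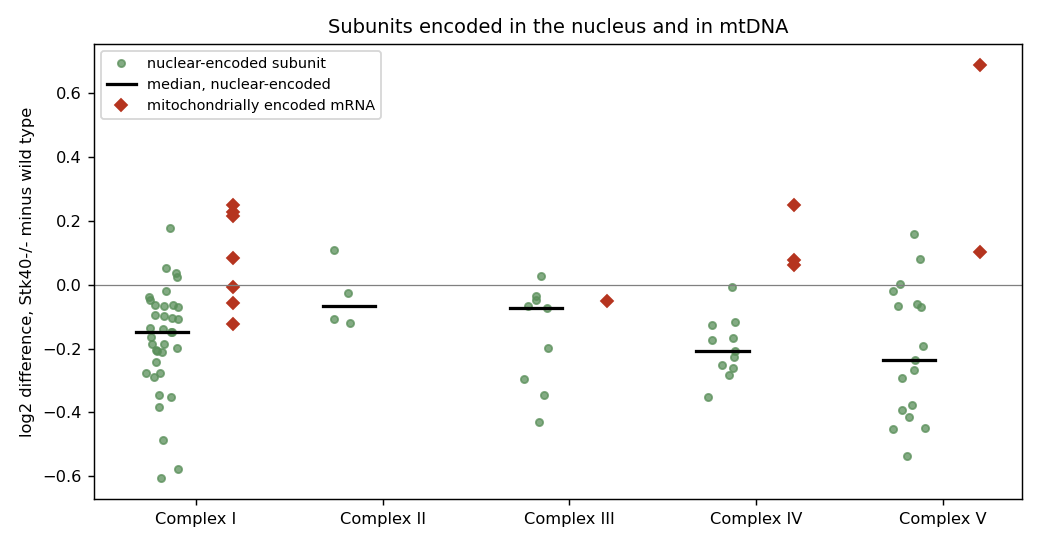
Points give the log2 difference of Stk40-/- minus wild type on log2(TPM + 1) for nuclear-encoded subunits (green, with a black line at their median) and mitochondrial mRNAs (red) of complexes I to V. The medians of the nuclear genes run from -0.24 in complex V to -0.07 in complexes II and III, and no gene drawn passed the threshold in limma.

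Other properties moved with the nuclear subunits. On X and chromosome 16, where 873 protein-coding genes had a median of -0.06, lie 6 of the 77, among them Atp5o and Ndufa1, and the median of the remaining 71 was -0.14. Protein-coding genes with a longest transcript under 1000 bases had a median of -0.10 (650 genes), against 0.07 for longer ones (12234 genes). Those under 1000 bases with a mean of at least 100 TPM, subunit genes among them, had a median of -0.12, with 143 of 183 negative. The 35 subunit genes under that length had a median of -0.20 and the 42 longer ones -0.11. Cytosolic ribosomal protein genes had a median of -0.10, with 55 of 77 negative. The part of transcript length in the difference between nuclear and mitochondrial subunits was not tested.

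Genes that copy and transcribe mtDNA are all nuclear. Of 15 such genes, all tested, limma called 0 in either direction (smallest adjusted p = 0.474, 0 at an unadjusted p under 0.05), 12 had positive and 3 negative log2 differences, and in 6 the Stk40-/- values were higher without overlap. That is 80% positive and 40% without overlap, beside 58.6% and 27.5% of all tested genes. Tfam, which packages mtDNA and opens its promoters, had wild-type values of 142 and 143 TPM and Stk40-/- values of 166 and 158 TPM (log2 difference 0.18, SE 0.07, limma adjusted p = 0.474). Polrmt, the mitochondrial RNA polymerase, had wild-type values of 15.9 and 20.8 TPM and Stk40-/- values of 24.1 and 19.9 TPM, and its partner Tfb2m had 21.6 and 31.5 TPM and 31.4 and 19.2 TPM in the same order, both with overlapping groups. The catalytic subunit gene of the mtDNA polymerase, Polg, had wild-type values of 30.5 and 44.6 TPM and Stk40-/- values of 39.96 and 39.7 TPM. The accessory subunit gene Polg2 had wild-type values of 12.6 and 11.1 TPM and Stk40-/- values of 14.3 and 16.9 TPM. The helicase gene Twnk had 14.6 and 15.3 TPM and 16.5 and 17.4 TPM in the same order. For the last 2 the groups did not overlap.

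Genes that process and stabilise mitochondrial RNA had 18 positive and 4 negative log2 differences among 22 tested, with 0 called by limma (smallest adjusted p = 0.409, 1 at an unadjusted p under 0.05). That is 81.8% positive and 4.55% at an unadjusted p under 0.05, beside 58.6% and 10.99% of all tested genes. Lrpprc, which binds mitochondrial mRNAs and keeps them stable, had wild-type values of 53.6 and 55.3 TPM and Stk40-/- values of 59.9 and 60.4 TPM. The groups did not overlap. Its partner Slirp had 12.8 and 14.2 TPM and 8.24 and 13.4 TPM in the same order, and the poly(A) polymerase gene Mtpap had 28.7 and 21.3 TPM and 24.2 and 27.6 TPM, both with overlapping groups. Grsf1, an RNA-binding protein gene of mitochondrial RNA granules, had wild-type values of 319 and 153 TPM and Stk40-/- values of 101 and 79.4 TPM. Its groups did not overlap, but the wild-type libraries lay further from each other than the lower of them lay from the Stk40-/- libraries (log2 difference -1.29, SE 0.38, limma adjusted p = 0.409; -0.77 without wild-type library 1). The RNase P subunit gene listed as 1110008L16Rik had wild-type values of 16.3 and 14.9 TPM and Stk40-/- values of 19.7 and 18.3 TPM.

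The lists of genes for translation and for mitochondria in general went both ways. Of 78 mitochondrial ribosomal protein genes 29 had positive and 49 negative log2 differences (median -0.05). That is 37.2% positive, beside 58.6% of all tested genes. Limma called 0 of the 78, and 8, or 10.3%, had an unadjusted p under 0.05, against 10.99% of all tested genes. Mrps18a (wild type 88.8 and 95.1 TPM, Stk40-/- 67.9 and 65.9 TPM) and Mrps5 (wild type 109 and 116 TPM, Stk40-/- 138 and 139 TPM) had the smallest unadjusted p in each direction. Of 17 mitochondrial aminoacyl-tRNA synthetase genes, which charge the tRNAs, 9 were positive (52.9%) and 8 negative. Lars2, the leucine synthetase gene, had wild-type values of 149 and 182 TPM and Stk40-/- values of 81.1 and 93.0 TPM (log2 difference -0.91, SE 0.14, limma adjusted p = 0.265). Of 14 genes for import, channels and the matrix 6 were positive (42.9%) and 8 negative. The smallest unadjusted p was that of the ADP/ATP carrier gene Slc25a5, with wild-type values of 961 and 917 TPM and Stk40-/- values of 696 and 719 TPM. Of 9 regulators of mitochondrial biogenesis 8 were tested, with 5 positive and 3 negative and 0 called by limma (smallest adjusted p = 0.661, 0 at an unadjusted p under 0.05). Ppargc1a, the coactivator PGC-1 alpha, was below the filter, at 0.128 to 0.386 TPM.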

How the data were processed

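Polyadenylated RNA of 2 libraries per genotype was compared. The authors deposited TPM for each gene (per the file headers), and every column sums to 1000000. The submitters' processing notes name CASAVA 1.7, Salmon 0.8.2 and hg38. The last is a human build, while the IDs are those of mouse Ensembl genes, so the authors' annotation is unknown here. Depth cannot be read from TPM. No per-sample column was left unused (0).

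Of the genes, 15739 averaged 1 TPM or more, among them 20 of the 37 mitochondrial ones, and were tested as log2(TPM + 1) by limma 3.58.1 (R 4.3.3), with an intensity trend, Benjamini-Hochberg adjustment over all of them and a threshold of 0.05. On simulated data for this comparison (15739 genes, 200 changed) it called 38% of genes changed 2-fold and 82% of those changed 4-fold. It also called 6 unchanged genes. The changed genes were drawn from those of higher level only, and the noise was normal. In the data themselves 0 genes were called, Stk40 included, so these rates need not hold for the genes described here. Single values used exact permutation tests (scipy 1.17.1). Positions and sequences came from GENCODE M21 on GRCm38 (51633 IDs matched without version), and copies from blastn 2.17.0. Members and lists were chosen with earlier results of these data known. Named were all mitochondrial genes above 1 TPM, the 3 copies, and from each list up to 2 genes per direction with the smallest unadjusted p, with 9 genes of mtDNA upkeep, RNA handling and biogenesis in any case; for lists with many genes only the leading ones are given. Alternatives were pseudocounts, filters, scalings, a replicate block, no intensity trend, each library left out and, chosen after seeing the data, scaling without RNAs lacking a poly(A) tail, summing with the copies, and subunit genes by chromosome and length.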

Additional observations from a re-analysis of the deposited data

How the results depend on the processing

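Over the 15 alternatives that were run for counts of calls, limma called 0 genes and 0 mitochondrial genes in each. At an unadjusted p under 0.05, 985 to 2229 genes were found, 1730 in the reported setting. The replicate block left the count of calls at 0 (2118 genes at an unadjusted p under 0.05). The numbers 1 and 2 pair nothing that the labels state, and the deviations of same-numbered libraries had a correlation of 0.09 over all tested genes. Leaving out 1 library gave median log2 differences of 0.0049 to 0.13 for the 13 mRNAs, 0.02 to 0.19 for their sum, and -0.23 to 0.15 for the rRNA sum. For the nuclear OXPHOS subunits the median of -0.16 ran from -0.17 to -0.13 with 1 library left out. It was -0.23 with median-of-ratios scaling and -0.11 over subunit genes with a longest transcript of at least 1000 bases. The sign was the same in all of these for the mRNA sum and the nuclear subunits.

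Among single genes the sign turned in 22 of 338 values, all of differences that had not passed. The filters, the replicate block and the fit without an intensity trend leave a difference unchanged, so no sign could turn there. Values of 0 were counted as not turned. With 1 library left out, the differences ran from -0.085 to 0.12 for mt-Rnr1, -0.29 to 0.16 for mt-Rnr2, -0.29 to 0.046 for mt-Nd1, -0.21 to 0.098 for mt-Nd2, -0.15 to 0.57 for mt-Nd3, -0.077 to 0.062 for mt-Nd4 and -0.041 to 0.54 for mt-Nd6. They ran from -0.047 to 0.21 for mt-Co2, -0.23 to 0.13 for mt-Cytb, -0.0049 to 0.26 for mt-Tp and -0.16 to 0.22 for Gm28437. With median-of-ratios scaling mt-Rnr1 was at -0.047, mt-Co3 at -0.0016 and Gm28437 at -0.032. Scaled to nuclear TPM mt-Nd4 was at 0.0032, and without RNAs lacking a poly(A) tail mt-Rnr1 was at -0.0022. Summed with its copy mt-Nd3 was at -0.23 and mt-Nd4 at 0.035. The cause was not tested, apart from the sums with copies, which add the values given above. The depth is unknown, and 2 libraries per genotype limit the precision.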
